A study of Mus musculus with 60 samples.

Results

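The copines are a family of 9 genes in the mouse, *Cpne1* to *Cpne9*, and all 9 were found among the 46480 genes of the tables. They were taken by name, and the family was looked at because *Cpne7* had a much higher level in ventral than in dorsal dentate gyrus (DG) in these same samples. The dorsal-ventral values of the family are therefore given as a description, with no p-value, while the effects of housing, which played no part in the choice, were tested.

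Copines are soluble proteins that bind phospholipid membranes when calcium rises. Each carries a pair of C2 domains, the calcium- and lipid-binding module also found in synaptotagmins and protein kinase C, followed by an A domain related to the von Willebrand factor A domain, through which they bind other proteins. In the hippocampus the best known member is *Cpne6* (copine-6, or N-copine), a neuronal protein that moves to membranes in active dendritic spines and has been linked to Rac1 signaling and to BDNF-TrkB signaling. *Cpne1* and *Cpne3* are expressed in many tissues, and copine-3 was described as a partner of the receptor ErbB2.

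Male C57BL6J mice were weaned at day 22, kept for 8 weeks in standard housing (SH, small groups in plain cages) or in an enriched environment (EE, large groups in big cages with running wheels and toys), and killed at day 80. Total RNA of dissected whole-tissue dorsal or ventral DG, each sample pooled from several mice, was sequenced with strand information, which gave 4 groups of 5 samples, each region in each housing. The dorsal and ventral samples with 1 number came from the same pool of mice. SH replicate 3 was left out of the fits, as the study excluded 1 SH pool and its sample sheet marks this pool as possibly of mixed sex, which left 18 samples from 9 pools (4 SH and 5 EE).

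Between 22919364 and 28301861 fragments per sample were counted on genes. All 7 listed dentate granule cell markers were expressed, among them *Prox1* at 105 to 274 CPM (counts scaled to the library size), and the samples also held RNA of other cells. The summed granule cell markers ran from 1383 to 1674 CPM in dorsal and from 724 to 1049 CPM in ventral samples, and 6 of 7 were called higher in dorsal DG. The summed CA pyramidal markers ran from 464 to 545 CPM in dorsal and from 576 to 733 CPM in ventral samples, with 4 of 6 called higher in ventral and 2 higher in dorsal DG. *Nrip3*, at 210 to 268 CPM in dorsal and 299 to 365 CPM in ventral samples, was the largest part of that sum. The choroid plexus markers summed to between 22.5 and 208 CPM in dorsal and between 387 and 1418 CPM in ventral samples, and 6 of 6 were called higher in ventral DG. Most of the ventral sum lay in *Ttr*, at 5.12 to 173 CPM in dorsal and 347 to 1304 CPM in ventral samples. The mossy cell markers summed to 55.4 to 69.4 CPM in dorsal and 101 to 142 CPM in ventral samples. Of these, 1 of 5 was called in each direction. Most of the difference in the sum lay in *Calb2*, at 11.1 to 25.2 CPM in dorsal and 58.3 to 101 CPM in ventral samples. *Dkkl1* was also higher in ventral DG, while *Drd2*, *Ajap1* and *Nmb* were higher in dorsal DG. The habenula and thalamus markers summed to 133 to 182 CPM in dorsal and 67.5 to 87.2 CPM in ventral samples. Of these, 2 of 6 were called higher in dorsal DG. Most of that difference lay in *Prkcd*, at 73.4 to 100 CPM in dorsal and 13.2 to 18.9 CPM in ventral samples, while *Tac2* went slightly the other way. The interneuron markers summed to 468 to 573 CPM in dorsal and 479 to 580 CPM in ventral samples. Of these, 3 of 7 were called higher in ventral and 1 higher in dorsal DG. Of 5 astrocyte markers, 1 was called higher in ventral DG. No listed oligodendrocyte, microglia or endothelium marker was called by region. The part of these cell types in the regional values below was not tested. In bulk tissue, fewer cells of a type and less RNA per cell cannot be told apart.

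RefSeq promoter windows (GRCm38.p6) were at hand for 6 of the 9 genes, *Cpne1*, *Cpne2*, *Cpne4*, *Cpne5*, *Cpne8* and *Cpne9*, in 7 windows. The stretches before *Cpne2* and *Cpne9* are shown because these genes had regional differences of like size and opposite direction. Both are on the plus strand, read 5′ to 3′, end before the first annotated base of the gene, and have each CG dinucleotide in capitals. The *Cpne2* stretch lies at chr8:94532778-94532989 and the *Cpne9* stretch at chr6:113282057-113282306, and no annotated exon lies in either.
Cpne2: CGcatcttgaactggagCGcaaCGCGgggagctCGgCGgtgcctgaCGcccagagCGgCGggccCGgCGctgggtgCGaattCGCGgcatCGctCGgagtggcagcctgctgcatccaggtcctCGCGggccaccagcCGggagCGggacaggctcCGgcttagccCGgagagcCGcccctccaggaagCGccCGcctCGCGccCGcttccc
Cpne9: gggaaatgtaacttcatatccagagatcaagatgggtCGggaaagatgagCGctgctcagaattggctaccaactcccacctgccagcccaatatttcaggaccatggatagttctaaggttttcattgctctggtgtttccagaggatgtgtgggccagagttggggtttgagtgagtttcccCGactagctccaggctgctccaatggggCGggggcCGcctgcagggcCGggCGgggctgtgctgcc
The *Cpne2* stretch held 28 CG dinucleotides in 212 bases at 74.5% GC, and the *Cpne9* stretch held 7 in 250 bases at 56.4% GC. Over the full windows of 250 bases, *Cpne2* had 32 CG dinucleotides, *Cpne8* 28, *Cpne5* 27, *Cpne1* 11, *Cpne9* 7, and *Cpne4* 13 in 1 window and 1 in the other. The median was 6 over 32851 windows of the same length. The full windows of *Cpne2* and *Cpne8* reach past the first annotated base of the gene. Those of *Cpne4* and *Cpne5* lie inside the annotated gene. The window of *Cpne5*, which like *Cpne9* was higher in dorsal DG, was thus close to that of *Cpne2* in CG number. The letters AGGTCA (a nuclear receptor half-site), CAGATG (an E-box bound by NeuroD1) and TGACGTCA (a CREB site) were searched on both strands. They were present in 14.0%, 14.4% and 1.55% of all windows and in none of the 7 copine windows.

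The family was first compared within each sample by length-corrected expression, as each gene's share of the summed TPM (RSEM's abundance per transcript length) of the 9 copines. *Cpne6* was the most abundant copine in every sample. It made up 57.5% ± 1.56 (SD, n = 9) of the family in dorsal and 51.5% ± 2.33 (SD, n = 9) in ventral DG. Averaged over samples, its TPM was higher than that of 97.5% of tested genes.

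The order below *Cpne6* differed between the regions. In dorsal DG *Cpne4* was second with a share of 23.0% ± 0.912 (SD, n = 9) and *Cpne9* came next with 5.87% ± 0.447 (SD, n = 9), each apart from its neighbours in all 9 samples. *Cpne7* had a dorsal share of 2.62% ± 0.437 (SD, n = 9), and its range overlapped those of *Cpne5* and *Cpne2*, the genes next to it in the order. In ventral DG *Cpne7* was second with 22.1% ± 1.78 (SD, n = 9), above *Cpne4* at 13.4% ± 0.232 (SD, n = 9) and *Cpne2* at 4.94% ± 0.602 (SD, n = 9), with no overlap between neighbours. *Cpne1*, *Cpne3*, *Cpne5*, *Cpne8* and *Cpne9* each had a ventral share between 1.07% and 2.63%, and *Cpne3*, *Cpne9* and *Cpne5* overlapped in their ranges. *Cpne8* had the lowest mean share in both regions, at 1.07%.

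**Figure D1:**
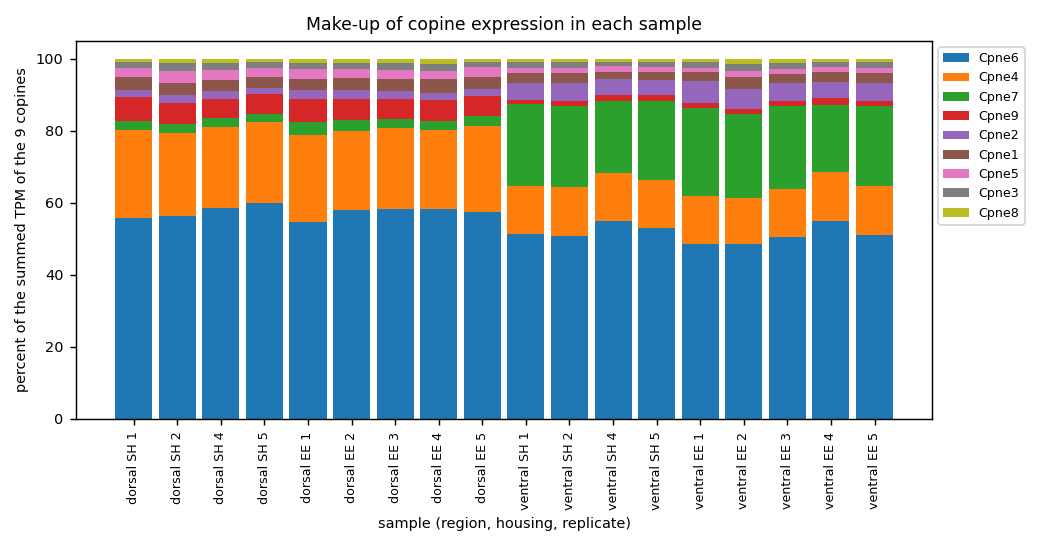
Each bar is 1 of the 18 samples, and its colored parts give the percent of the summed TPM of the 9 copines taken by each gene. The *Cpne7* part is 2.03% to 3.51% in dorsal and 18.5% to 24.4% in ventral bars, while *Cpne6* is the tallest part of every bar.

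Values between samples were compared as CPM scaled by the trimmed mean of M-values (TMM), since 57.9% to 71.9% of each sample's TPM lay in 5 small RNA genes. *Cpne7* had the largest regional difference of the family. In dorsal SH it was at 17.4, 14.5, 17.6 and 14.5 CPM in replicates 1, 2, 4 and 5, and in dorsal EE at 23.2, 19.5, 17.1, 16.1 and 19.0 CPM in replicates 1 to 5. In ventral SH it was at 197, 199, 198 and 223 CPM, and in ventral EE at 219, 182, 224, 176 and 222 CPM. The lowest ventral sample was above the highest dorsal sample, and ventral was higher in all 9 pools.

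The fitted dorsal-over-ventral log2 fold change of *Cpne7* was -3.55 ± 0.07 (SE), or 11.7-fold higher in ventral DG. It was -3.68 ± 0.11 (SE) in SH and -3.43 ± 0.09 (SE) in EE, and -3.94 to -3.22 in single pools. Among 12201 expressed genes, 12, or 0.0984%, had a log2 fold change of at least this size, *Cpne7* included. The pool that was left out, which the choice did not use, had a dorsal level of 19.1 CPM and a ventral level of 185 CPM, a log2 ratio of -3.28.

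*Cpne7* lies on chromosome 8 at 123117374 to 123135182 on the plus strand (GRCm38), where its exons share 67 bases with the microRNA gene *Mir7080* of the same strand. Among ventral samples, EE replicate 4 had both the lowest *Cpne7* level, 176 CPM, and the lowest sum of CA pyramidal markers, 576 CPM. EE replicate 3 had the highest of both, 224 CPM and 733 CPM. The same EE replicate 3 sample also had the highest ventral choroid plexus sum, 1418 CPM, and the lowest ventral granule cell sum, 724 CPM. In EE replicate 4 these sums were 920 CPM and 1040 CPM. Among dorsal samples, SH replicate 1 had the highest choroid plexus sum, 208 CPM, and a *Cpne7* level of 17.4 CPM, the median of the 9. The dorsal extremes of *Cpne7* and of the CA pyramidal sum did not fall in the same samples. The highest CA pyramidal sum, 545 CPM in SH replicate 4, went with 17.6 CPM of *Cpne7*, and the lowest, 464 CPM in EE replicate 4, with 16.1 CPM. The highest dorsal *Cpne7* level, 23.2 CPM in EE replicate 1, went with a CA pyramidal sum of 517 CPM. The lowest, 14.5 CPM in SH replicates 2 and 5, went with 476 and 525 CPM. Whether cell make-up has a part in the *Cpne7* values was not tested.

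*Cpne2*, on the same chromosome at 94532990 to 94570531, was also higher in ventral DG. The dorsal SH samples had 12.8, 13.7, 14.2 and 11.6 CPM, and the dorsal EE samples 14.8, 15.3, 13.4, 13.3 and 12.0 CPM. The ventral SH samples had 39.3, 41.6, 38.8 and 42.4 CPM, and the ventral EE samples 46.2, 40.0, 46.9, 39.4 and 46.4 CPM. The regions did not overlap, and the log2 fold change was -1.65 ± 0.05 (SE), or 3.15-fold higher in ventral DG.

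*Cpne9* went the other way. The dorsal SH samples had 41.5, 33.6, 32.9 and 34.7 CPM, and the dorsal EE samples 38.6, 35.4, 32.8, 32.7 and 39.2 CPM. The ventral SH samples had 12.2, 11.6, 12.3 and 10.4 CPM, and the ventral EE samples 12.2, 9.87, 11.5, 15.7 and 12.2 CPM. Every dorsal sample was above every ventral sample, and the log2 fold change was 1.58 ± 0.07 (SE), or 2.99-fold higher in dorsal DG. A log2 fold change of at least this size was found in 77 genes, or 0.631% of those expressed.

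*Cpne5* was higher in dorsal DG by a log2 fold change of 0.49 ± 0.06 (SE). Its levels of 16.3 to 19.8 CPM in dorsal and 11.3 to 14.5 CPM in ventral samples did not overlap. *Cpne4*, the second most abundant dorsal copine, ran from 129 to 170 CPM in dorsal and from 99.4 to 132 CPM in ventral samples. These ranges overlapped, but dorsal was higher in all 9 pools, and the log2 fold change was 0.31 ± 0.05 (SE).

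The remaining copines were slightly higher in ventral DG, with overlapping regions. *Cpne6* was at 304 to 362 CPM in dorsal and 317 to 457 CPM in ventral samples, with a log2 fold change of -0.29 ± 0.06 (SE), and ventral was higher in all 9 pools. *Cpne8*, at 5.56 to 8.80 CPM in dorsal and 7.58 to 12.1 CPM in ventral samples, had a log2 fold change of -0.32 ± 0.08 (SE). *Cpne3*, at 24.9 to 29.9 CPM in dorsal and 28.6 to 33.1 CPM in ventral samples, had a log2 fold change of -0.18 ± 0.04 (SE), a difference under 20%. In both *Cpne8* and *Cpne3*, 1 of the 9 pools was higher in dorsal DG. The pool left out had the same direction as the fit in all 8 of these genes, with the smallest log2 ratios in *Cpne8* (-0.12) and *Cpne4* (0.18). It is 1 pool, and the share of all expressed genes with the same direction in it was not computed, so nothing is read from this count.

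Summed over the 9 genes, copine expression was 599.5 ± 30.8 CPM (SD, n = 9) in dorsal and 836 ± 63.8 CPM (SD, n = 9) in ventral DG. The ranges of 556 to 634 CPM and 705 to 909 CPM did not overlap. The mean of *Cpne7* went from 17.7 CPM dorsally to 204 CPM ventrally, so most of the difference in the sum lay in this gene. The sum is of unique counts, in which *Cpne1* was at most 0.285 CPM. It thus holds almost nothing of *Cpne1*, whose level from expected counts is given below.

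**Figure D2:**
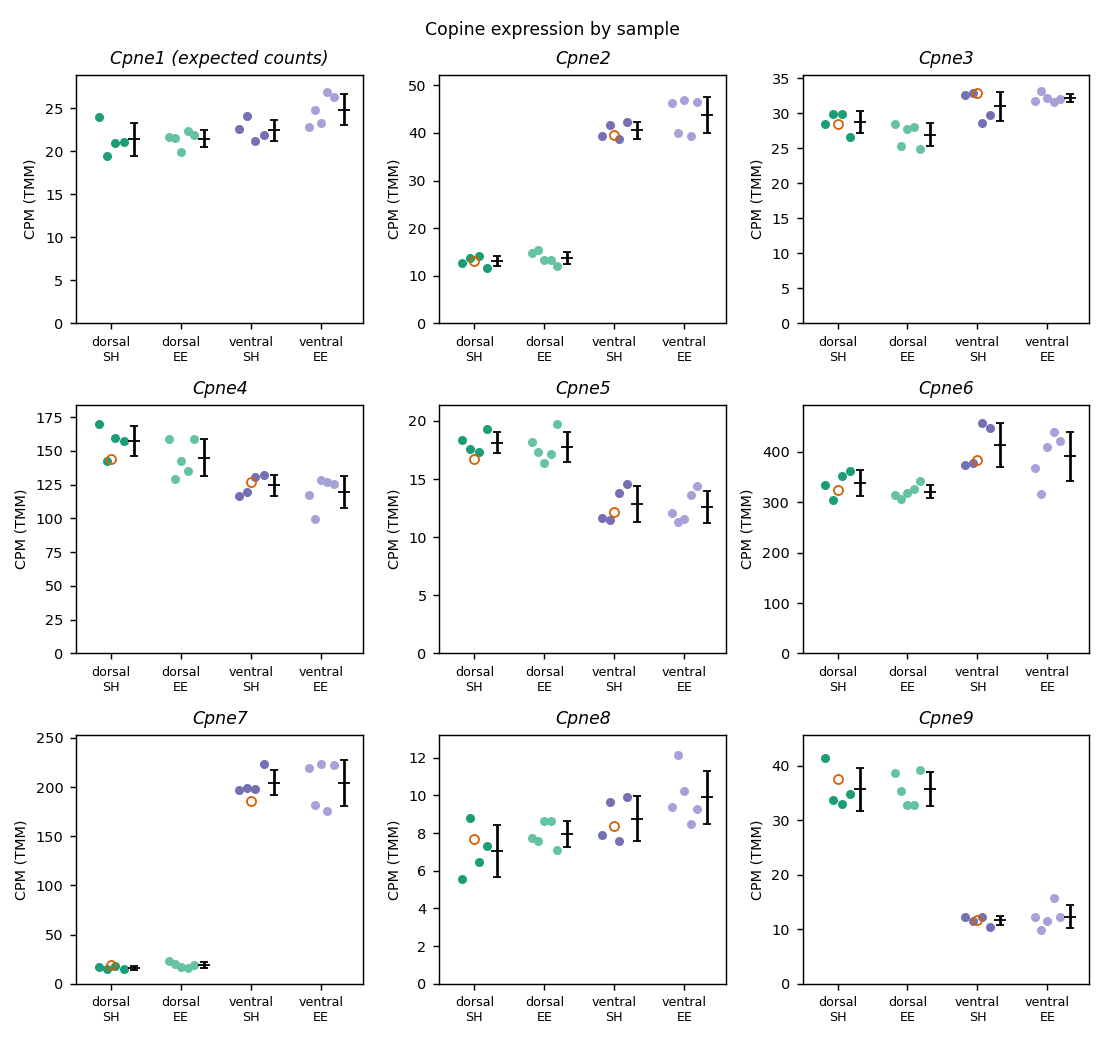
Each panel shows 1 copine, with CPM on a vertical axis that starts at 0 and the 4 groups along the horizontal axis. Filled points are samples, bars give the mean ± SD of a group, and open orange circles are the pool left out of the fits. *Cpne1* is drawn from expected counts. *Cpne7*, *Cpne2*, *Cpne9* and *Cpne5* are separated by region, and no gene is separated by housing.

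By the study's rule (false discovery rate (FDR) under 0.05, fold change over 20%, TPM over 1 in at least 3 samples), 7 of the 8 copines tested were called by region, 3 toward dorsal and 4 toward ventral DG. Over all expressed genes the rule called 27.9%, made up of 13.6% toward dorsal and 14.3% toward ventral DG. Samples of the regions did not overlap in 4 of the 8 copines, against 22.5% of expressed genes. Because the family was chosen on this contrast, nothing is read from these counts.

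**Figure D3:**
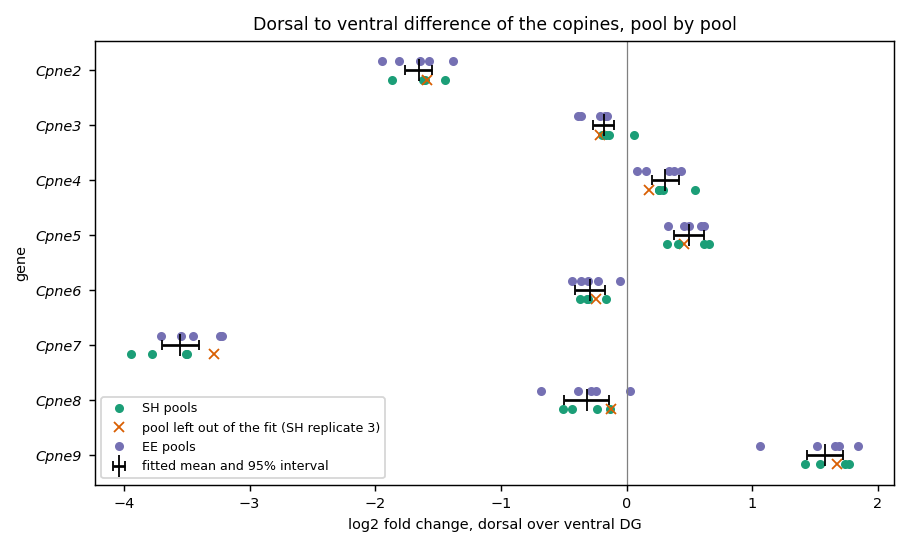
The horizontal axis is the log2 fold change of dorsal over ventral DG for the 8 copines tested. Points are single pools of mice, orange crosses mark the pool left out, and black bars give the fitted mean with its 95% interval. *Cpne7* sits near -3.55, *Cpne2* near -1.65 and *Cpne9* near 1.58, and the others lie between -0.32 and 0.49.

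*Cpne1* could not be tested with the unique counts, which were 0 to 7 per sample. Its exons, on chromosome 2 at 156071842 to 156111965 on the minus strand, share 3755 bases with the gene model *Gm28036* and 404 bases with *Rbm12*, both on the same strand, and reads shared between genes were not counted. *Gm28036* had 0 unique counts in every sample. RSEM, which divides shared reads among the transcripts they fit, gave *Cpne1* 538 to 807 expected counts per sample, so its level depends on that division and is uncertain. Fitted on expected counts, its log2 fold change between regions was -0.14 ± 0.04 (SE), with 21.4 ± 1.36 CPM (SD, n = 9) in dorsal and 23.8 ± 1.95 CPM (SD, n = 9) in ventral DG. *Gm28036* moved the other way, from 23.6 ± 2.49 CPM (SD, n = 9) in dorsal to 17.2 ± 1.65 CPM (SD, n = 9) in ventral DG, and *Rbm12* had 28.8 ± 2.45 and 22.8 ± 1.33 CPM (SD, n = 9) in the same regions.

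The effect of EE was tested within each region. No copine was called at FDR under 0.05 with a fold change of at least 20%, 0 of 8 in dorsal and 0 of 8 in ventral DG, by edgeR's quasi-likelihood test. The same rule called 0.634% of 17040 genes in dorsal and 0.241% in ventral DG. At an unadjusted p under 0.05, 1 of 8 copines passed in dorsal and 0 of 8 in ventral DG, against 8.81% and 7.58% of all genes. DESeq2 also called 0 copines in both regions.

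The gene that passed without adjustment was *Cpne7* in dorsal DG, the region where its level was low. Its mean was 16.0 ± 1.71 CPM (SD, n = 4) in SH and 19.0 ± 2.74 CPM (SD, n = 5) in EE, and the groups overlapped. The log2 fold change was 0.25 ± 0.10 (SE; 95% interval 0.04 to 0.46), with an unadjusted p of 0.0243 and an adjusted p of 0.452 from edgeR with Benjamini-Hochberg adjustment. Dorsal EE replicate 1 had the highest of these values, 23.2 CPM, and leaving out 1 pool at a time the log2 fold change ran from 0.167, without EE replicate 1, to 0.304. In ventral DG the means were 204 ± 12.5 CPM (SD, n = 4) and 204 ± 23.6 CPM (SD, n = 5), with a log2 fold change of 0.00 (95% interval -0.18 to 0.18).

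The other tested copines had EE log2 fold changes of -0.12 to 0.18 in dorsal and of -0.08 to 0.17 in ventral DG, and all their intervals held 0. *Cpne6*, the most abundant, had -0.07 (95% interval -0.24 to 0.10) in dorsal and -0.08 (95% interval -0.25 to 0.09) in ventral DG. Leaving out 1 pool at a time, these values ran from -0.121 to -0.0345 in dorsal and from -0.129 to -0.0132 in ventral DG. *Cpne8*, the lowest, had the widest intervals, -0.08 to 0.43 in dorsal and -0.07 to 0.41 in ventral DG. Its dorsal value of 0.18 was 0.0768 without SH replicate 1 and 0.300 without SH replicate 2. *Cpne4* had -0.12 (95% interval -0.27 to 0.03) in dorsal DG. From expected counts *Cpne1* had 0.01 (95% interval -0.13 to 0.14) in dorsal and 0.15 (95% interval 0.02 to 0.28, adjusted p = 0.610) in ventral DG. These values did not pass the test, which does not show that EE left the copines as they were.

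**Figure D4:**
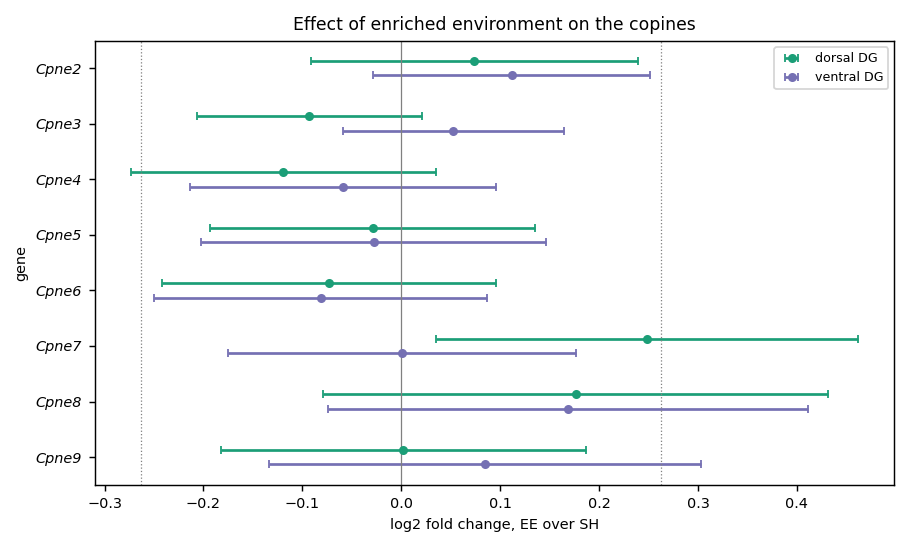
The horizontal axis is the log2 fold change of EE over SH for the 8 copines tested, in dorsal (green) and ventral (purple) DG. Points are fitted values, bars are 95% intervals, and dotted lines mark a 20% change. The dorsal *Cpne7* interval, 0.04 to 0.46, is the one that leaves out 0.

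Whether the effect of EE differed between the regions was tested as an interaction. It was called in 0 of 8 copines at FDR under 0.05, against 0.00587% of all genes, and 0 of 8 passed at an unadjusted p under 0.05, against 3.25%. DESeq2 called 0 copines as well. For *Cpne7* the dorsal minus ventral difference in EE effect was 0.25 on the log2 scale (95% interval -0.03 to 0.52), and for *Cpne3* it was -0.15 (95% interval -0.31 to 0.01). Leaving out 1 pool at a time, the *Cpne7* value ran from 0.163, without SH replicate 5, to 0.317, and the *Cpne3* value from -0.171 to -0.0863, the latter without SH replicate 4. The other 6 lay between -0.08 and 0.01.

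How copines varied together within groups was described by correlating each sample's deviation from its group mean of log2 CPM, over 18 samples and 28 pairs of genes. The samples share library depth, cell make-up and, across regions, the mice, so these values carry no test. *Cpne4*, *Cpne5* and *Cpne6* varied together, with r of 0.62 to 0.78. *Cpne2* and *Cpne7*, both higher in ventral DG, had r = 0.65, but *Cpne7* also had r = 0.53 with *Cpne4*, which was higher in dorsal DG. The other pairs of copines called higher in ventral DG had r of -0.48 to 0.15. *Cpne8* and *Cpne9* varied in opposite directions, with r = -0.79, and *Cpne3* was opposite to *Cpne5* (r = -0.65) and *Cpne6* (r = -0.55). In ventral EE replicate 2, *Cpne4*, *Cpne5*, *Cpne6* and *Cpne9* were at their lowest ventral levels, 99.4, 11.3, 317 and 9.87 CPM. *Cpne8* and *Cpne3* were at their highest ventral levels there, 12.1 and 33.1 CPM. The same sample had the fewest counts on genes, 22919364, and the largest share of fragments not on a gene, 40.9%. Its part in these correlations was not tested.

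**Figure D5:**
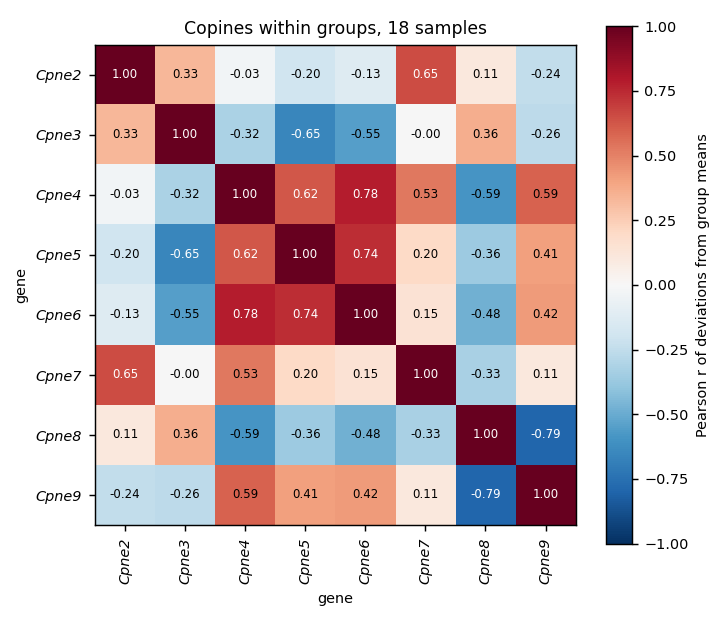
Each cell gives the Pearson r between the deviations of 2 copines from their group means over 18 samples, red for positive and blue for negative. *Cpne4*, *Cpne5* and *Cpne6* form a red block of 0.62 to 0.78, and *Cpne8* with *Cpne9* is the deepest blue at -0.79.

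The genes whose log2 CPM over the 18 samples followed that of *Cpne7* most closely were *Cpne2*, *Nkd2* (a Wnt pathway antagonist), *Dpp10* (a subunit of A-type potassium channels), *Nr2f2* (the transcription factor COUP-TFII) and *Timp2* (a metalloproteinase inhibitor), with Pearson r of 0.991 to 0.994. All were higher in ventral DG, which sets most of this likeness. The list depended on the scale, as most of it changed on log2(TPM + 1). *Nr2f2* was at 7.22 ± 0.846 CPM (SD, n = 9) in dorsal and 30.2 ± 3.13 CPM (SD, n = 9) in ventral DG.

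On deviations from group means a different set followed *Cpne7*, namely *Efr3b*, *Rab6b*, *Gnas*, *Grik4* and *Nrip3*, with r of 0.840 to 0.880. *Grik4*, a kainate receptor subunit, and *Nrip3* were also on the list of CA pyramidal markers. *Cpne6* was followed by *Hspa8* (a constitutive heat shock protein), *Enpp5*, *Wdr47*, *Ddx20* and *Aldoa* (a glycolytic enzyme), with r of 0.971 to 0.985.

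Other genes with C2 domains, among them synaptotagmins, Doc2 proteins, rabphilin, extended synaptotagmins and conventional protein kinase C, gave a list of 38 genes, of which 36 were tested (*Syt8* and *Sytl3* were too low) and 26 passed the TPM limit. By region 7 were called toward dorsal and 6 toward ventral DG, beside 13.6% and 14.3% of all expressed genes. The median log2 fold change of the 36 tested genes was -0.04. Over the 12201 expressed genes, a set that the TPM limit makes narrower, it was -0.0017. *Doc2b*, a calcium sensor for spontaneous release, differed by 1.31 ± 0.05 (SE) on the log2 scale, and *Rph3a* (rabphilin), a Rab3 effector on synaptic vesicles, 1.09 ± 0.03 (SE), both higher in dorsal DG. *Sytl4* (granuphilin) was higher in ventral DG with -1.33 ± 0.13 (SE).

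EE called 0 of the 36 C2-domain genes in dorsal DG, where 0.634% of all genes were called, and 2 in ventral DG, where 0.241% were called. In ventral DG *Syt12* rose and *Otof* fell. *Syt12*, a synaptotagmin of synaptic vesicles, went from 29.3 ± 1.33 CPM (SD, n = 4) to 35.8 ± 2.71 CPM (SD, n = 5), which is 0.29 ± 0.06 (SE) on the log2 scale, with an edgeR adjusted p of 0.0219. *Otof* (otoferlin), known from hair cell synapses, went from 5.00 ± 0.728 to 3.39 ± 0.467 CPM, which is -0.56 ± 0.12 (SE) on the log2 scale, with an edgeR adjusted p of 0.0468. In dorsal DG both genes had differences of like size in the same directions. *Syt12* was at 27.9 ± 1.25 CPM in SH and 33.3 ± 1.61 CPM in EE, or 0.26 ± 0.06 (SE) on the log2 scale with an adjusted p of 0.0298, and missed the call by the 20% fold limit. *Otof* was at 1.53 ± 0.280 and 1.03 ± 0.111 CPM, or -0.57 ± 0.17 (SE) with an adjusted p of 0.178. The EE effects in the 2 regions differed by -0.03 for *Syt12* and -0.01 for *Otof*, with an adjusted p of 1.00 for each interaction by edgeR. The ventral calls depended on single pools. The count fell to 0 when EE replicate 3, 4 or 5 or SH replicate 2 or 4 was left out, and to 1 without EE replicate 1 or SH replicate 1 or 5.

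A list of 15 reported copine partners and calcium-dependent spine genes, among them Rac1 and its effectors, BDNF and its receptor, CaM kinase II and calmodulin, was tested in full. By region 2 were called higher in dorsal DG, *Bdnf* with a log2 fold change of 0.70 ± 0.07 (SE) and *Camk2b* with 0.54 ± 0.04 (SE), and 1 was called in the other direction, *Limk1* with -0.43 ± 0.04 (SE). These 3 calls among 14 expressed genes stand beside 27.9% of all expressed genes. EE called 0 of 15 in dorsal and 0 of 15 in ventral DG, beside 0.634% and 0.241% of all genes, by edgeR.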

How the data were processed

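Libraries were trimmed with Trim Galore (0.4.0), mapped with STAR (2.5.1b) and quantified with RSEM (1.2.30), per the labels and the study's methods. The deposited tables hold, per the file headers and values, STAR's reverse-strand read counts per gene (uniquely mapped, not normalized), RSEM's expected counts, TPM and FPKM. The authors' counts were the main input, the authors' expected counts (rounded) served for *Cpne1* and as an alternative, the deposited TPM for shares and the expression limit, and the deposited FPKM as an alternative. Gene names and coordinates came from GENCODE vM21 (GRCm38).

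Genes with over 10 counts in at least 2 of 18 samples (17040) were fitted with edgeR (4.0.16, TMM, quasi-likelihood test, 4 group means, Benjamini-Hochberg adjustment) in R (4.3.3). The region test was joint over both housings. DESeq2 (1.42.0) was an alternative. The members and lists were chosen with earlier results of these data known. Named genes were the 9 copines, the 5 most correlated with *Cpne7* (and, on deviations, with *Cpne7* and *Cpne6*), the 3 listed genes with the largest change per comparison, and genes with exons overlapping a copine on the same strand. The TAB-seq and MethylC-seq samples were not analysed here.

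Alternatives were other tests, scalings, filters and count columns, all 20 samples, a replicate block (the pool for region and interaction, the replicate number for EE) and each pool left out. Taking *Cpne1* from expected counts was settled after its unique counts were seen.

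Each sample is a pool of mice, so p-values measure the spread between pools. Dorsal and ventral samples of 1 number came from the same mice, by the study's account. Their deviations from group means correlated with a mean r of 0.0827 (-0.084 to 0.189) over 9 pools. Within groups, counts of samples differed beyond sampling noise in all 40 pairs (chi-square per degree of freedom 2.94 to 39.3). These pairs are of all 20 samples, with the pool left out of the fits included. Sample depths were 22919364 to 28301861 counts, and low genes such as *Cpne8* carry more counting error.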

Additional observations from a re-analysis of the deposited data

Results flagged for a closer look

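In ventral SH, replicate 5 had 223.1 CPM of *Cpne7*, while the other 3 samples lay between 197 and 199 CPM, so its gap to the next sample was 0.900 of the group's whole range. It was the only value far from its group in 40 gene and group combinations of 4 or 5 samples, where chance marks about 1 in 20. The 5 ventral EE samples, at 176 to 224 CPM, included values as high. The same sample had a choroid plexus marker sum of 1094 CPM, where the rest of its group had 387 to 604 CPM, and its part in the *Cpne7* value was not tested. Without SH replicate 5 and the other pools in turn, the regional log2 fold change of *Cpne7* stayed between -3.58 and -3.50.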

How the results depend on the processing

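The number of copines called by region stayed at 7 and by EE or interaction at 0 in each setting run, except that *Cpne3* was also called by region (-0.18) with no fold change limit, and no regional log2 fold change changed sign. The mean share of *Cpne7* moved by less than 1 SD in each setting, also with *Cpne1* left out of the sum, an alternative chosen after seeing the data. Changes of sign were found only in EE and interaction values near 0. They occurred with the replicate block (*Cpne5* 0.000449 and *Cpne7* -0.0145, EE in ventral DG), with filterByExpr (*Cpne7* -5e-05, EE in ventral DG; *Cpne5* 0.0025, interaction), with unstranded counts (*Cpne5* 0.00118, interaction), with expected counts (*Cpne8* -0.0555, interaction) and with all 20 samples (*Cpne9* -0.0128, EE in dorsal DG; interaction of *Cpne5* 0.00614, *Cpne6* -0.00111 and *Cpne8* -0.0322). Leaving out each pool in turn, EE in dorsal DG ran from -0.0693 to 0.00672 for *Cpne5* and from -0.0316 to 0.0854 for *Cpne9*. EE in ventral DG ran from -0.0906 to 0.00149 for *Cpne4*, -0.0825 to 0.036 for *Cpne5*, -0.0338 to 0.0507 for *Cpne7* and -0.0175 to 0.151 for *Cpne9*. The interaction ran from -0.109 to 0.0333 for *Cpne2*, -0.0989 to 0.0131 for *Cpne4*, -0.0523 to 0.0536 for *Cpne5*, -0.0418 to 0.0518 for *Cpne6*, -0.0729 to 0.103 for *Cpne8* and -0.144 to 0.0521 for *Cpne9*. The adjusted p of *Cpne7* for EE in dorsal DG ran from 0.245 to 0.747 over the fits. The C2-domain list had 1 call for EE in dorsal DG with unstranded counts and 0 to 1 leaving out each pool, and in ventral DG 3 calls with the replicate block, 1 with expected counts, 0 with separate fits and 0 to 2 leaving out each pool, and the cause was not tested. On log2(TPM + 1), 1 of the 5 genes most like *Cpne7* was shared. The EE intervals of *Cpne8* in both regions, *Cpne7* and *Cpne4* in dorsal and *Cpne9* in ventral DG allowed changes over 20%. So did that of *Cpne1* in ventral DG from expected counts.

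The labels do not say that EE and SH samples of 1 number share a litter or batch. Their deviations correlated with r of 0.0815 to 0.175, over 0.1 in 7 of 8 pairs, and 9 of 16 samples correlated best with their own number. Each sample had 4 or 5 samples of its region in the other housing to choose from. The r of pairs with unlike numbers was not summarized, so whether the numbers are matched was not settled. With the number as a replicate block, calls over all genes went from 108 to 172 for EE in dorsal and from 41 to 87 in ventral DG, and 0 copines were called. The adjusted p of *Cpne7* in dorsal DG was then 0.274. In a separate fit for the region and interaction, with the pool as a replicate block, 7 copines were called by region.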
